A study of Mus musculus with 8 samples.

Results

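Glycolysis turns glucose into pyruvate, and 34 genes for glucose uptake, the glycolytic steps and the entry of pyruvate into mitochondria were followed here among 32245 gene symbols counted in nuclei from the gastrocnemius, a muscle of the calf, of mice. They were chosen by name as a pathway list with no threshold on a measured value, although with earlier results of these data known. All 34 had at least 1 unique molecular identifier (UMI, a tag that counts 1 captured RNA molecule) in 7 of the 8 libraries. In the second Running library 33 did, because Aldoc was not listed there. The list holds 2 glucose transporters, 2 hexokinases, 7 genes of upper glycolysis, 4 regulators of fructose-2,6-bisphosphate, 8 genes of lower glycolysis, 2 side branches, 2 mitochondrial pyruvate carriers, 3 subunits of pyruvate dehydrogenase and 4 pyruvate dehydrogenase kinases.

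The muscles came from wild-type C57BL/6 mice in 4 groups of 2 libraries each. Young mice were 3 months old and Old mice were 20 months old. Running mice were 11 months old at the start and ran on a treadmill for 2 months, and Sedentary mice of the same starting age did not run. Each group had 1 library made with 10x Genomics reagents (replicate 1) and 1 from a second droplet system (replicate 2). The labels do not say whether a library is 1 mouse or a pool, so p-values measure only the spread between these libraries, which may be technical.

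In muscle, glucose enters mainly through the insulin- and contraction-responsive transporter GLUT4 (Slc2a4), is trapped by hexokinase 2 (Hk2) and is committed to glycolysis by phosphofructokinase, for which fructose-2,6-bisphosphate is the main activator. Several steps have a muscle isoform beside isoforms used in other tissues. Fast Type IIb fibres are known for glycolytic work, whereas Type IIa and slow fibres rely more on mitochondria, where pyruvate enters through the carrier made of MPC1 and MPC2 and is oxidised by pyruvate dehydrogenase unless a pyruvate dehydrogenase kinase (PDK) switches that enzyme off.

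After filtering, 64803 nuclei remained, 10587 to 12991 in each 10x library and 4228 to 4772 in each library of the second set. The median nucleus held 1664 to 3001 UMIs in the 10x set and 909 to 1689.5 in the second set. Libraries of the 10x set shared 30 to 46 barcode names pairwise, and those of the second set, whose names are serial labels and not sequences, shared 3729 to 4196. Classes of nuclei were named from marker genes, with the 34 genes left out of the clustering. The second Old library stood apart: 78.8% of its nuclei lay in clusters left unnamed, against 3.24% to 19.5% in the other libraries of that set, and its Type IIb-like and Type IIa/IIx-like classes held only 513 and 84 nuclei. In the 10x set the unnamed share was highest in Sedentary, at 34.1%, against 9.17% to 14.8% in the others. Myofibre clusters that did not meet the rule for Type IIa/IIx markers were named by their share of Myh4, the Type IIb myosin. They became Type IIb-like where Myh4 made up most of the myosin heavy chain level. No limit on the score of the Type IIb markers was set. 1 cluster named in this way, of 3472 nuclei in the second set, scored higher on the Type IIa/IIx than on the Type IIb markers (0.38 against 0.20).

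In summed RNA of all retained nuclei, the 34 genes made up 0.362% to 0.481% of UMIs in the 10x libraries and 0.481% to 1.18% in the second set. Eno3, the muscle enolase, was counted most often, with 117230 UMIs over the 8 libraries, followed by Pfkm with 108068 and Pfkfb3 with 97230. Per kilobase of the longest annotated transcript, the mean level over libraries was 661 CPM (UMI counts on a per-million scale, relative to all UMIs of the library or class) for Eno3, 512.5 for Aldoa, the muscle aldolase, 419.3 for Pgam2, the muscle phosphoglycerate mutase, 335.3 for Pfkm, the muscle phosphofructokinase, and 238.3 for Mpc1. Per kilobase of the whole gene, which also counts introns, the order at the top was Eno3 (194.6), Pgam2 (168.2) and Aldoa (143.9), with Slc2a4 next at 47.3. The 3 genes at the top on both scales therefore lay in lower and upper glycolysis.

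Levels within a gene are given below in CPM, always in the order Young, Old, Sedentary and Running. Eno3 stood at 690, 393, 308 and 526 in the 10x set and at 1817, 954, 1461 and 2122 in the second set. Aldoa stood at 531, 321, 199 and 475 in the 10x set and at 1097, 695, 1011 and 2023 in the second. For both genes every library of the second set was above every 10x library, so that the library set separated the samples more than the groups did.

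Slc2a4 stood at 152, 180, 125 and 173 in the 10x set and at 342, 192, 374 and 601 in the second set. Hk2 stood at 240, 235, 193 and 257, and at 490, 266, 603 and 548. The pattern was different for Pfkfb3, which makes fructose-2,6-bisphosphate and stood at 908, 599, 400 and 514 in the 10x set but at 53.6, 99.6, 354 and 394 in the second. Its second-set libraries were all below the 10x libraries, and Young was the highest of the 10x set and the lowest of the second.

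Several isoforms used outside muscle were also counted. Eno1 stood between 9.90 and 43.4 CPM over the 8 libraries, Hk1 between 5.04 and 39.7 and Pfkp between 2.32 and 27.3. Slc2a1, which encodes the transporter GLUT1 found in most cells, stood between 1.47 and 8.05 CPM over the 8 libraries. Pfkl, the liver phosphofructokinase, stood between 4.76 and 13.4, Pgam1 between 5.23 and 11.4, and Eno2, the neuronal enolase, between 0.546 and 3.21. Aldoc, the brain aldolase, had 37 UMIs in all. Its absence from the second Running library allows a level of up to 0.41 CPM, which is 3 UMIs of that library's total and covers counting error only.

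**Figure D1:**
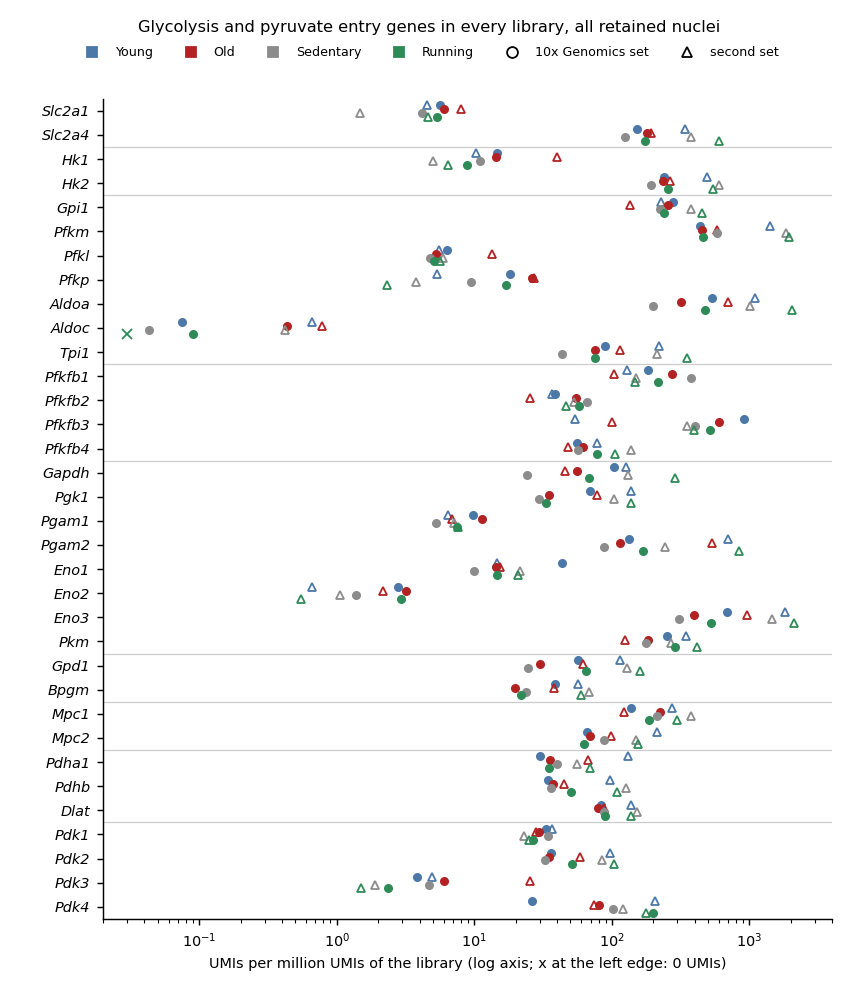
Level of each of the 34 genes in each library, in CPM of the library on a log axis, summed over all retained nuclei. Colours mark the groups, filled circles the 10x Genomics set and open triangles the second set, and a cross at the left edge marks 0 UMIs (Aldoc in the second Running library). Eno3 reached 2122 and Aldoc stayed below 1, and for many genes the 2 sets sit apart.

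The muscle isoform supplied most UMIs of each of the 6 families with more than 1 isoform on the list. Over all retained nuclei its share per library was 87.0% to 99.2% for hexokinase (Hk2), 93.5% to 99.6% for phosphofructokinase (Pfkm), 99.9% to 100% for aldolase (Aldoa), 91% to 99.1% for phosphoglycerate mutase (Pgam2), 93.7% to 99.2% for enolase (Eno3) and 96% to 99.6% for the glucose transporter (Slc2a4). The lowest hexokinase share was that of the second Old library.

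The start regions of 5 genes are printed here because they belong to isoform pairs whose shares differed between classes of nuclei. Each run is the 150 bases before the start in RefSeq (GRCm38.p6), 5′ to 3′ on the gene's strand, with capitals marking CANNTG, the short E-box pattern that muscle regulators of the MyoD family are known to bind and that reads the same pattern on both strands. The runs lie at chr11:5803797-5803946 on the minus strand for Pgam2, chr11:70657026-70657175 on the plus strand for Eno3, chr19:41911721-41911870 on the plus strand for Pgam1, chr6:124769674-124769823 on the minus strand for Eno2 and chr13:6648772-6648921 on the minus strand for Pfkp, the platelet phosphofructokinase.
Pgam2: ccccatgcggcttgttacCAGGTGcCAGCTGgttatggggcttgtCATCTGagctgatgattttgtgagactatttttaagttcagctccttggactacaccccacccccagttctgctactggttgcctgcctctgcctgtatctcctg
Eno3: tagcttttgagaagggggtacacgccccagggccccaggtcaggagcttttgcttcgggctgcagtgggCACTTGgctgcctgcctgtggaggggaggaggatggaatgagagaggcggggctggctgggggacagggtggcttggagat
Pgam1: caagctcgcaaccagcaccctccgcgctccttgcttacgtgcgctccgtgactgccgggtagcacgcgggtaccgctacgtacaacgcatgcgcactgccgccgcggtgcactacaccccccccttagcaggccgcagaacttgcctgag
Eno2: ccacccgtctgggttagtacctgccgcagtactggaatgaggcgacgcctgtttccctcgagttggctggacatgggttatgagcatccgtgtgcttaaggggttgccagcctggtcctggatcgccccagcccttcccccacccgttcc
Pfkp: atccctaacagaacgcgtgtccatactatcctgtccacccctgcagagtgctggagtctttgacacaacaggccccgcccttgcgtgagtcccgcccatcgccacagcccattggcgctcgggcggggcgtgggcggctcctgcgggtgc

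These windows held 3 CANNTG matches for Pgam2, 1 for Eno3 and 0 for Pgam1, Eno2 and Pfkp. They held 1 CG pair for Pgam2 and 3 for Eno3, against 17 for Pgam1, 8 for Eno2 and 12 for Pfkp. Isoforms not printed did not all follow this split. In the 250 bases before the start, Hk2, the muscle hexokinase, held 0 CANNTG matches and 25 CG pairs. Pfkl, the liver phosphofructokinase, held 3 matches and 13 CG pairs there. Eno2 held 1 match in that longer window. Over the full 250 bases before the start, CANNTG occurred in 32 of the 51 start records found for 32 of the 34 genes, and in 66.2% of all 32851 records, so that the pattern is common everywhere. TATAAA, searched on both strands, occurred in 2 of the 51 records and in 12.4% of all records. The median record of the 34 genes held 13 CG pairs in that window and the median of all records 6. Slc2a4 and Gpd1 had no record in the table used. A match is only a run of letters and was not related to the counts.

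Type IIb-like and Type IIa/IIx-like nuclei of the same libraries differed across most of the pathway. In Type IIb-like nuclei most steps of glycolysis from Gpi1 to Pkm were higher, as were Pfkfb3 and Pfkfb4, whereas both pyruvate carriers, all 3 pyruvate dehydrogenase subunits, Pdk4, Pfkfb1 and Pfkfb2 were lower. Of the 32 genes tested (Aldoc and Eno2 were too low), 14 were higher and 8 lower at an adjusted p under 0.05 in edgeR's quasi-likelihood test over the 8 libraries. The same test called 25.9% of all 16287 genes, 15.9% higher and 10.0% lower. At an unadjusted p under 0.05 it listed 24 of the 32 genes and 35.8% of all genes. The median log2 difference of the 32 genes was 0.31, against 0.12 for all genes. With DESeq2 14 and 8 of the 32 were called, while the higher part of all calls fell from 61.3% to 50.7%. 13 of the 32 were higher in each of the 8 libraries and 6 lower in each, against 9.03% and 3.96% of all genes. The count was 19 in the 10x libraries alone (11 higher, 8 lower, 31 tested), where 1945 of all 13635 genes were higher and 2139 lower. It was 18 in the second set alone (12 higher, 6 lower, 28 tested), where 625 of all 11035 genes were higher and 842 lower. The clusters had been built without the 34 genes but from other genes of the same nuclei.

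The regulators of fructose-2,6-bisphosphate split. Pfkfb3, the isozyme with the strongest kinase activity, stood in Type IIb-like nuclei at 1291, 1054, 832 and 731 CPM in the 10x set and at 72.2, 131, 426 and 448 in the second, and in Type IIa/IIx-like nuclei of the same libraries at 353, 113, 109 and 197, and at 32.7, 45.4, 169 and 242. It was higher in Type IIb-like nuclei in every library, by 4.28-fold in the fit (log2 difference 2.10 ± 0.21 SE, edgeR adjusted p = 1.25e-07). In a ranking of the same counts, and so not a separate result, Pfkfb3 was among the 10 leading genes of 3 of the 5 Type IIb-like clusters of the second set. It took no part in building these clusters.

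Pfkfb4 was 1.89-fold higher in Type IIb-like nuclei (log2 difference 0.92 ± 0.11 SE), with 46.5 to 81.9 CPM in Type IIa/IIx-like nuclei of 7 libraries and 68.5 to 157 in Type IIb-like nuclei. In the second Old library it had 0 UMIs in Type IIa/IIx-like nuclei, which allows up to 34 CPM. That class sum held only 88132 UMIs, so low levels of other genes in it also rest on few UMIs. Pfkfb1, the isozyme first described in liver and muscle, went the other way. It stood at 211, 303, 323 and 191 in Type IIb-like nuclei of the 10x set and at 437, 641, 628 and 427 in Type IIa/IIx-like nuclei, and its second-set values were 139, 90.6, 147 and 140 against 212, 159, 220 and 210. The log2 difference was -0.72 ± 0.09 SE. Pfkfb2, the heart isozyme, differed by -0.58 ± 0.10 SE on the log2 scale, so that 2 of the 4 isozymes were higher in Type IIb-like nuclei and the other 2 lower.

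In upper glycolysis 4 of the 6 genes tested were higher in Type IIb-like nuclei. Gpi1, glucose-6-phosphate isomerase, had the largest log2 difference of the 4, at 0.82 ± 0.10 SE, with 170 to 485 CPM in Type IIb-like and 125 to 323 in Type IIa/IIx-like nuclei. Tpi1, triose phosphate isomerase, differed by 0.62 ± 0.10 SE, Pfkm by 0.55 ± 0.09 SE and Aldoa by 0.47 ± 0.09 SE. Pfkm was higher in Type IIb-like nuclei in each library, for example 602 against 504 in Young and 569 against 537 in Running of the 10x set. The unscaled level of Aldoa went the other way in the 10x Young library alone, with 646 against 721, but not after the scaling between sums that the fit uses. Pfkl had a log2 difference of 0.58 ± 0.23 SE (adjusted p = 0.0719) and Pfkp one of 0.34 ± 0.32 SE, and neither was called.

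In lower glycolysis 6 of the 7 genes tested were higher in Type IIb-like nuclei. Eno3 stood at 964, 636, 476 and 694 in Type IIb-like nuclei of the 10x set and at 1446, 1168, 1580 and 2194 in the second set. In Type IIa/IIx-like nuclei it stood at 718, 360, 262 and 450, and at 1029, 545, 1185 and 1728. Every library had the higher value in Type IIb-like nuclei, although the ranges of the classes overlapped between libraries, and the log2 difference was 0.77 ± 0.10 SE (edgeR adjusted p = 2.67e-06).

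Pkm, which encodes muscle pyruvate kinase, had a log2 difference of 0.86 ± 0.12 SE, with 150 to 409 CPM in Type IIb-like and 45.4 to 394 in Type IIa/IIx-like nuclei. Eno1, the enolase of most tissues, differed by 0.61 ± 0.13 SE and Pgk1, phosphoglycerate kinase, by 0.48 ± 0.09 SE. Pgam2 differed by 0.50 ± 0.09 SE, with 173, 157, 120 and 198 in Type IIb-like nuclei of the 10x set against 185, 133, 69.0 and 151 in Type IIa/IIx-like nuclei. Its 10x Young values were thus in the opposite order before that scaling and in the same order after it. Gapdh, glyceraldehyde-3-phosphate dehydrogenase, had the smallest difference called, 0.29 ± 0.08 SE (adjusted p = 0.0134), and was not called in either library set alone, where the log2 difference was 0.21 and 0.19. Pgam1 had a log2 difference of -0.21 ± 0.19 SE and was not called.

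Gapdh has many processed copies in the genome, and Gm3839, a Gapdh-like pseudogene, was itself counted at 1.13 to 2.92 CPM in the 10x set and 40.8 to 83.4 in the second. Reads of Gapdh and its copies may therefore be split differently in the 2 sets, and its level is uncertain.

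Both side branches were higher in Type IIb-like nuclei. Gpd1, the cytosolic glycerol-3-phosphate dehydrogenase that takes up NADH from glycolysis, stood at 75.2, 51.7, 34.6 and 74.3 in Type IIb-like nuclei of the 10x set and 124, 73.2, 150 and 181 in the second. Its Type IIa/IIx-like values were 47.9, 10.4, 16.5 and 51.3, and 73.4, 56.7, 78 and 87.4. It was higher in Type IIb-like nuclei in all 8 libraries, by 2.19-fold, or 1.13 ± 0.15 SE on the log2 scale (adjusted p = 3.55e-06 in edgeR). Bpgm, bisphosphoglycerate mutase, differed by 0.72 ± 0.12 SE.

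At the entry of pyruvate into mitochondria the order was the opposite. Mpc1 stood at 155, 236, 183 and 176 CPM in Type IIb-like nuclei of the 10x set and at 260, 170, 337 and 276 in the second. In Type IIa/IIx-like nuclei it stood at 266, 481, 338 and 323, and at 397, 431, 611 and 471. The Type IIa/IIx-like value was higher in every library, with no overlap between the classes within the 10x set, and the log2 difference was -0.72 ± 0.08 SE (edgeR adjusted p = 8.36e-07).

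Mpc2, the partner of Mpc1, differed by -0.54 ± 0.10 SE. Dlat, which encodes the E2 subunit of pyruvate dehydrogenase, differed by -0.55 ± 0.09 SE, Pdha1, the E1 alpha subunit, by -0.47 ± 0.11 SE and Pdhb, the E1 beta subunit, by -0.33 ± 0.09 SE. Dlat was lower in Type IIb-like nuclei in all 8 libraries, for example 90.5 against 168 in the 10x Young library. Pdha1 was lower in 6 of 8. Mpc2 and Pdha1 were not called in the second set alone, where their log2 differences were -0.31 and -0.30.

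Of the 4 kinases that switch pyruvate dehydrogenase off, Pdk4 alone was called. It stood at 29.7, 61.9, 57.5 and 147 in Type IIb-like nuclei of the 10x set and at 198, 123, 108 and 160 in the second, against 102.1, 270, 207 and 642, and 367, 56.7, 174 and 306 in Type IIa/IIx-like nuclei. It was lower in Type IIb-like nuclei in 7 of 8 libraries, the second Old library being the exception, and the log2 difference was -1.27 ± 0.18 SE (edgeR adjusted p = 1.04e-05). The Type IIa/IIx-like value of the second Old library, 56.7, rests on few UMIs, because 3 UMIs make 34 CPM in that class sum. In the ranking of the same counts Pdk4 was among the 10 leading genes of a Type IIa/IIx-like cluster of the 10x set. Pdk1, Pdk2 and Pdk3 had log2 differences of 0.02 ± 0.14 SE, -0.08 ± 0.10 SE and 0.05 ± 0.39 SE.

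Neither the transporters nor the hexokinases were called. Slc2a4 stood at 201, 236, 139 and 199 in Type IIb-like nuclei of the 10x set and at 212, 286, 137 and 210 in Type IIa/IIx-like nuclei. Its log2 difference was 0.09 ± 0.08 SE, an interval of 2 SE from -0.07 to 0.24. For Hk2 the difference was -0.13 ± 0.09 SE, with an interval from -0.31 to 0.05. Slc2a1 and Hk1, both low in myofibre classes, had log2 differences of 0.49 ± 0.23 SE and -0.35 ± 0.32 SE.

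**Figure D2:**
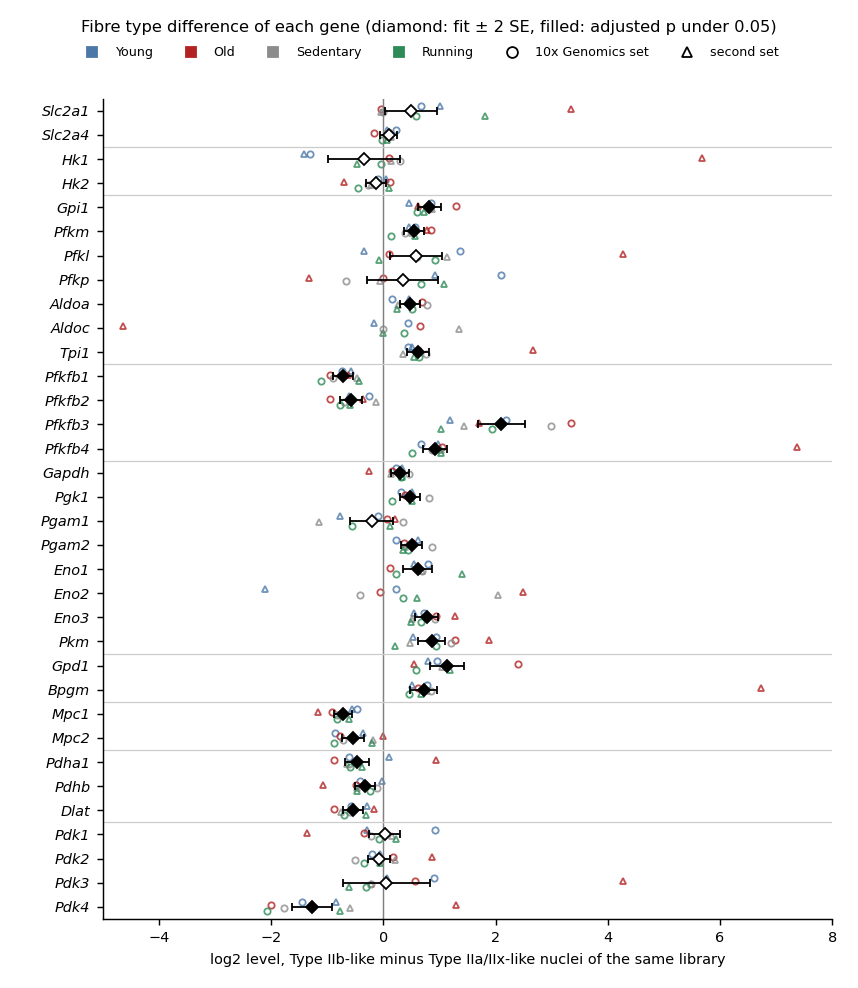
Log2 level of each gene in Type IIb-like minus Type IIa/IIx-like nuclei. Coloured symbols are the 8 libraries (colours mark the group, circles the 10x Genomics set and triangles the second set), and diamonds show the edgeR fit with bars of 2 SE either side, filled where the adjusted p was under 0.05. Pfkfb3 lies farthest to the right at 2.10, Pdk4 farthest to the left of the filled diamonds at -1.27, and the filled diamonds of the glycolytic steps lie right of 0 and those of the pyruvate carriers and pyruvate dehydrogenase subunits left of it.

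The other genes of the pathway, 41 on a list of lactate, glycogen and related metabolism, were read in the same fit. Of the 37 tested, 14 were higher and 9 lower in Type IIb-like nuclei, against 15.9% and 10.0% of all genes. The median log2 difference was 0.10 for the 37 genes and 0.12 for all genes. Ldha, the lactate dehydrogenase subunit that favours lactate production, had a log2 difference of 0.92 ± 0.11 SE and Ldhb, the heart subunit, one of -3.49 ± 0.40 SE. Slc16a3, the lactate exporter MCT4, differed by 0.89 ± 0.10 SE and Slc16a1, the lactate transporter MCT1, by -1.71 ± 0.13 SE.

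The glycogen genes Pygm (1.13 ± 0.10 SE), Phka1 (1.31 ± 0.12 SE), Phkb (1.01), Phkg1 (0.83), Pgm1 (1.13) and Gyg (0.54) were higher in Type IIb-like nuclei on the log2 scale. So were Gpd2 (1.75), Slc2a3 (1.76), Pcx (1.49), Fbp2 (1.10) and Tigar (0.94). The others called were lower: Pgm2 (-1.22), Gbe1 (-0.99), Tbc1d4 (-0.71), Gys1 (-0.63), Pdp1 (-0.42), Pdpr (-0.36) and Mlxip (-0.34).

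In slow-like nuclei, present with 20 or more nuclei in 6 libraries, Eno3 stood at 141 and 109 CPM in the 10x Old and Sedentary libraries, and Mpc1 at 397 and 312. Both Eno3 values were below the Type IIa/IIx-like values of the same libraries, 360 and 262. Gpd1 had 2 and 8 UMIs in these 2 class sums. In the second set slow-like Eno3 stood at 998 to 1767, within the range of the Type IIb-like and Type IIa/IIx-like classes there, and these values were not tested.

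Fibro-adipogenic progenitors (FAPs) are connective-tissue cells that lie between the fibres, and they served as a class that is not myofibre. Most genes of the list were higher in Type IIb-like than in FAP-like nuclei. Of 33 genes tested, edgeR called 27 higher and 4 lower, while the same test called 53.2% of all 17555 genes, 29.0% higher and 24.2% lower. At an unadjusted p under 0.05 it listed 31 of the 33 and 58.4% of all genes. The median log2 difference was 1.43 for the 33 genes and 0.11 for all genes. With DESeq2 the median of all genes was -0.26 and the higher part of all calls 38.7% in place of 54.4%, and 26 of the 33 genes were called higher and 4 lower. The 4 lower genes were Eno2, Pfkp, Hk1 and Pdk3, each an isoform known best from tissues other than muscle. 25 genes were higher and 2 lower in each of the 8 libraries, against 20.1% and 3.02% of all genes. These signs follow the scaling between sums that the fit uses, in which a larger factor lowers every level. In the second set the factors were 1.377 to 1.968 for FAP-like and 0.8703 to 1.104 for Type IIb-like sums. Unscaled Pkm was higher in FAP-like nuclei in every second-set library, at up to 116% of the Type IIb-like level. Unscaled Aldoa and Pgam2 were higher there in some of these libraries, whereas Hk2 stood at 54.4% to 78.8%.

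The FAP-like class differed between the sets. FAP-like nuclei of the 10x set carried 7.42% to 11.5% of the Type IIb-like level of 6 general myofibre markers, and those of the second set carried 64.3% to 83.6%. In the second set alone 10 of the 26 genes tested were higher and 0 lower, beside 806 and 770 of all 7310 genes, and 16 of the 26 had an unadjusted p under 0.05. The class held 27 to 124 nuclei per library there. In the 10x set alone 27 were higher and 4 lower, beside 5575 and 5724 of all 15977 genes. 33 of the 34 genes had a FAP-like level, as a percentage of the Type IIb-like level, above that of the myofibre markers in all 4 of the 10x libraries. The same count was not made over all genes, so it does not set the 34 genes apart. The part of myofibre RNA in the FAP-like levels was not tested.

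Pfkp stood at 66.5, 77.2, 53.6 and 77.6 CPM in FAP-like nuclei of the 10x set and at 0.84, 2.53, 1.0 and 2.52 in Type IIb-like nuclei. The log2 difference was -3.95 ± 0.46 SE. Hk1, the hexokinase bound to mitochondria in most tissues, stood at 45.2, 35.4, 29.1 and 33.0 against 0.53, 1.27, 1.83 and 1.28, with a log2 difference of -3.33 ± 0.55 SE. For these genes no FAP-like value of the 10x set came near a Type IIb-like one.

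Eno2 stood at 13.2, 12.1, 9.20 and 18.8 in FAP-like nuclei of the 10x set and at 0.36 or less in Type IIb-like nuclei, with a log2 difference of -5.0 ± 0.48 SE. Pdk3 stood at 11.9, 16.5, 21.5 and 9.27 against 0.22, 0.72, 0.50 and 0.53, with a log2 difference of -3.27 ± 0.49 SE. The edgeR adjusted p of these 4 genes lay between 8.38e-06 (Eno2) and 0.000259 (Hk1).

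Among the 27 genes higher in Type IIb-like nuclei, the largest log2 differences were those of Pfkfb3 (2.69 ± 0.43 SE), Pfkfb1 (2.67 ± 0.40 SE), Hk2 (2.44 ± 0.42 SE), Gpd1 (2.25 ± 0.40 SE) and Pfkm (2.17 ± 0.45 SE). Slc2a4 differed by 1.86 ± 0.37 SE and Pdk4 by 2.02 ± 0.29 SE. Pdha1 had the smallest, 0.59 ± 0.16 SE, and was not called by DESeq2 (0.25). In the 10x set its FAP-like level was 94.7% to 120% of the Type IIb-like level. Slc2a1 and Pgam1 were not called, with log2 differences of -0.07 ± 0.36 SE and 0.06 ± 0.32 SE.

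The share of the muscle isoform was then compared between these classes within each library, as the log2 ratio of muscle isoform to other isoform UMIs, by an exact two-sided sign-flip permutation test over the 8 libraries whose smallest possible p is 0.00781. The ratio was higher in Type IIb-like than in FAP-like nuclei for all 6 families. For phosphofructokinase the difference was 3.85 ± 2.60 (SD, n = 8; exact p = 0.00781, adjusted over the 6 families 0.0117), with the same sign in 8 of 8 libraries. Pfkm supplied a median of 99.1% of the family's UMIs in Type IIb-like and 83.8% in FAP-like nuclei. In the 10x set FAP-like nuclei held 462 UMIs of Pfkm against 435 of Pfkl and Pfkp together in Young, 609 against 557 in Old, 99 against 40 in Sedentary and 413 against 370 in Running.

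For hexokinase the difference was 5.08 ± 3.32 (SD, n = 8; exact p = 0.0156, adjusted 0.0187), in the same direction in 7 of 8 libraries. FAP-like nuclei of the 10x set held 173 UMIs of Hk2 and 281 of Hk1 in Young, 296 and 247 in Old, 22 and 19 in Sedentary, and 207 and 153 in Running. The Young library was the only one where Hk1 had more UMIs than Hk2 in FAP-like nuclei. In the second set these nuclei held 60 and 2, 8 and 0, 35 and 3, and 91 and 6, so that Hk2 led there.

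Enolase differed by 1.75 ± 1.21 (SD, n = 8) and the glucose transporter by 2.41 ± 0.58, both in 8 of 8 libraries (exact p = 0.00781, adjusted 0.0117). Eno3 supplied a median of 98.2% of enolase UMIs in Type IIb-like and 91.3% in FAP-like nuclei, and Slc2a4 98.2% and 92.5% of transporter UMIs. Phosphoglycerate mutase differed by 1.36 ± 1.47 in 7 of 8 libraries (exact p = 0.0391, adjusted 0.0391). Aldolase differed by 3.24 ± 1.70, but its ratio rests on the few UMIs of Aldoc and on the 0.5 added to each count, and Aldoa supplied a median of 100% in both classes. Phosphoglycerate mutase was not called with coarser clusters, where the difference was 1.10.

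Between the fibre classes the isoform ratios lay closer. Phosphoglycerate mutase alone was called, with a ratio higher in Type IIb-like than in Type IIa/IIx-like nuclei in 8 of 8 libraries (0.79 ± 0.52 SD, exact p = 0.00781, adjusted 0.0469; median Pgam2 share 97.5% and 95%). The call was lost with coarser clusters and with nuclei assigned by their dominant myosin heavy chain, where the difference was 0.55 and 0.67. The other families had adjusted p-values of 0.164 or above in this exact test. Hexokinase had a mean difference of -0.00 ± 1.43 with 4 libraries on each side.

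**Figure D3:**
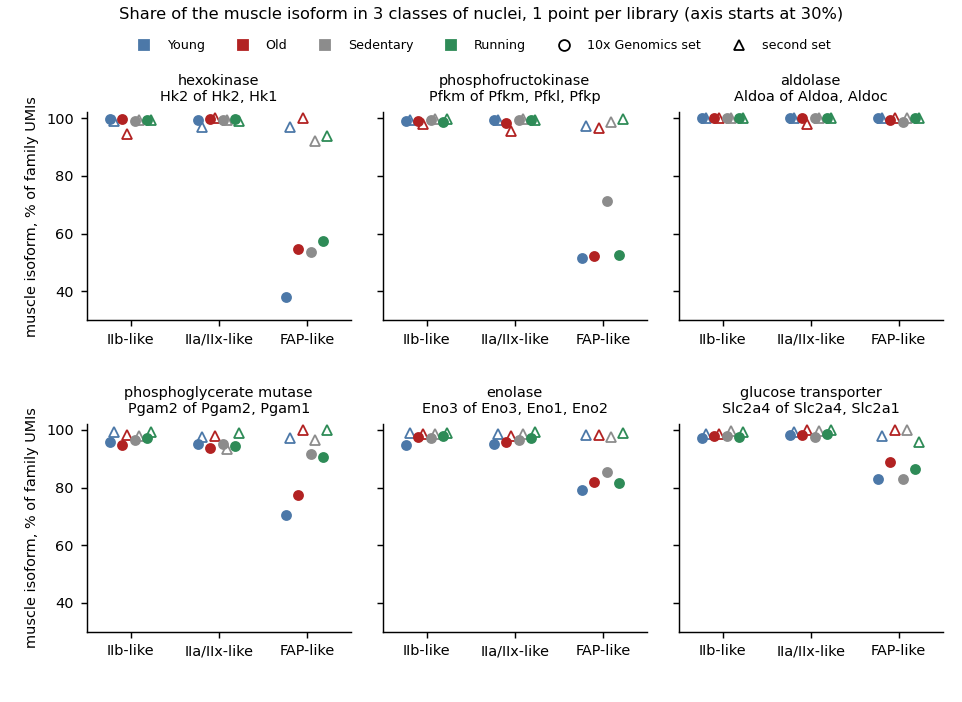
Share of family UMIs supplied by the muscle isoform (vertical axis in percent, starting at 30%) in Type IIb-like, Type IIa/IIx-like and FAP-like nuclei, with 1 panel per family and 1 point per library. The FAP-like points of the 10x Genomics set (filled circles) lie lowest for hexokinase, down to 38.1%, and for phosphofructokinase, down to 51.5%, whereas the myofibre classes lie at 93.5% or above and the second set (triangles) at 92.1% or above in FAP-like nuclei.

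In other classes of the 10x set the same isoforms stood out, as a description with no test. Hk1 stood at 55.4 to 77.3 CPM in muscle stem cell-like nuclei. Pfkp stood at 52.4 to 85.9 in macrophage-like nuclei and, in 3 libraries, at 88.7 to 124 in T cell-like nuclei, the latter from 5 to 24 UMIs. Eno2 stood at 9.40 to 14.6 in pericyte and smooth muscle-like nuclei, from 2 to 7 UMIs a library. Each of these levels was above the Type IIb-like level of the same gene in the same libraries.

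Adipocyte-like nuclei held Pfkfb1 at 569 to 714 CPM, about as much as Type IIa/IIx-like nuclei of the same libraries (427 to 641), beside Pfkfb3 at 642 to 852. Gpd1, which in fat cells supplies glycerol phosphate for lipid, ranged there from 29.1 in Sedentary and 39.6 in Old to 111 in Young and 262 in Running. Neuromuscular junction-like nuclei, which lie under the nerve ending, held Eno3 at 356 to 762 but Pfkfb3 at only 70.1 to 188, from 12 to 17 UMIs a library. Their Pfkfb3 was below the Type IIb-like level in each of the 4 libraries.

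**Figure D4:**
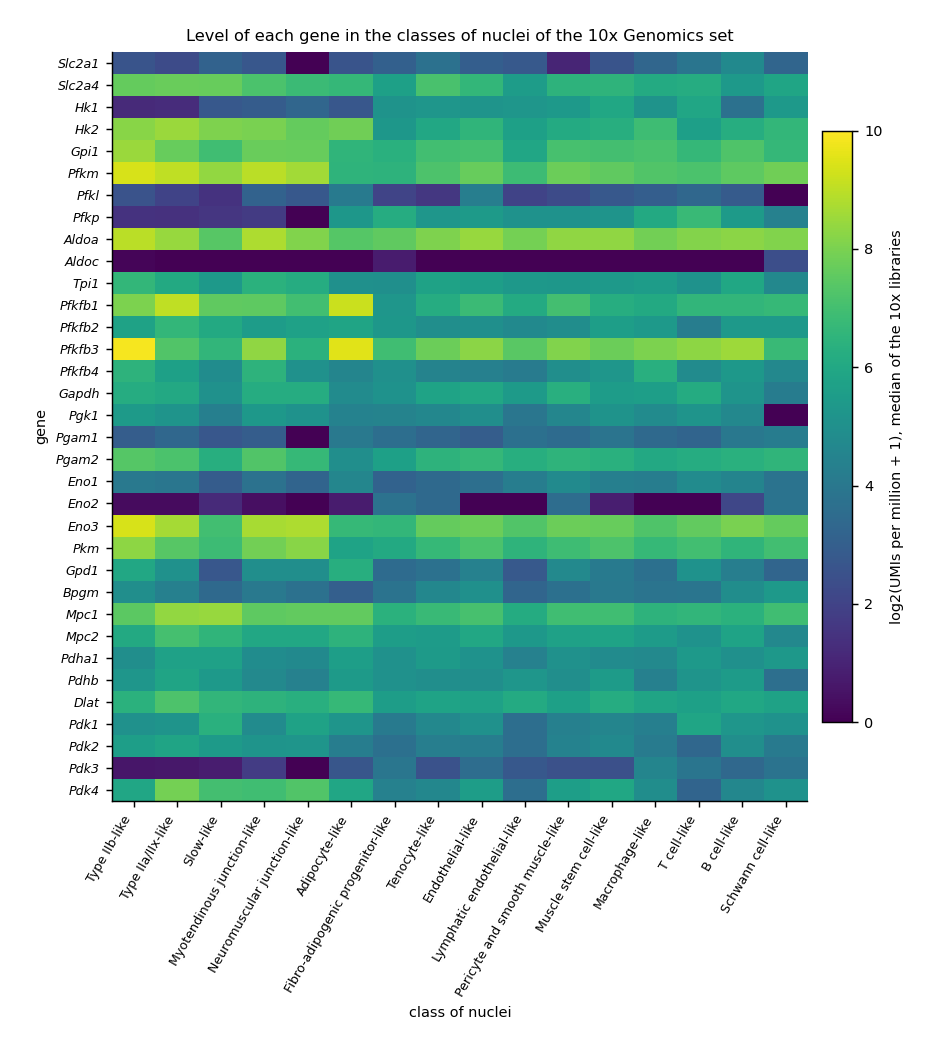
Level of the 34 genes (rows) in 16 classes of nuclei (columns) of the 10x Genomics set, as log2 of CPM plus 1, the median of the libraries with enough nuclei of the class. Myofibre classes are bright for Eno3, Pfkm, Aldoa and Hk2 and dark for Hk1, Pfkp, Eno2 and Pdk3. Pfkfb3 is brightest in Type IIb-like and adipocyte-like nuclei, and Aldoc is dark throughout.

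Whether age or running moved these genes was asked first in the sums of all retained nuclei, where fewer nuclei of a type and less RNA per nucleus cannot be told apart. In Old against Young, edgeR called 0 of the 34 genes and 0% of all 22527 genes, and DESeq2 called 0 of the 34. At an unadjusted p under 0.05, edgeR listed 5 and DESeq2 6 of the 34, against 2.25% of all genes in edgeR and 1241 of the 22527 in DESeq2. The median log2 difference was -0.75 for the 34 genes and 0.28 for all genes, or 0.41 for all genes with upper-quartile scaling. 23 of the 34 were lower in Old in both library sets and 2 higher (Pfkp and Pdk3), against 28.5% and 32.6% of all genes. These signs follow the scaling between sums that the fit uses, in which a larger factor lowers every level. The factor was 2.017 for the second Old library and 1.002 for the second Young library. Among the genes counted as lower, Pfkfb3 had the higher unscaled level in Old of the second set (99.6 against 53.6 CPM). So did Slc2a1, Pgam1 and Eno1. In the other library set the factor was 0.9427 for Old and 0.7952 for Young. There Pfkm (455.9 against 437.7 CPM), Pfkfb4, Mpc2, Pdha1, Pdhb, Slc2a1 and Pgam1 had the higher unscaled level in Old. The remaining genes counted as lower were also lower in Old of that set before scaling.

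The 5 genes were Pgk1 (log2 difference -1.35 ± 0.50 SE), Bpgm (-1.24 ± 0.50), Gpd1 (-1.32 ± 0.54), Pkm (-1.31 ± 0.54) and Eno3 (-1.28 ± 0.54), each with an adjusted p of 0.749. Pgk1 stood at 69.0 in Young and 34.6 in Old in the 10x set and at 138 and 78.4 in the second. Gpd1 stood at 56.7 and 30.3, and at 114 and 61.9. In both sets the Old value was the lower one for each. Pdk4 had opposite signs, with 26.2 in Young and 81.0 in Old in the 10x set and 206 and 73.7 in the second.

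These values moved together with the library. Without the second Old library 0 of the 34 genes had an unadjusted p under 0.05, and without the first Old library 27 of 33 tested had one, beside 395 of all 23907 and 8526 of all 24877 genes. In the second set Old had 0.481% of its UMIs on the 34 genes and Young 0.862%. The summed level of the 6 general myofibre markers was 59320 CPM in Young and 57980 in Old in the 10x set, and 50720 and 29770 in the second set. The summed level of 5 Type IIb markers was 8327 and 4288, and 17680 and 8461. That of 8 FAP markers was 2963 and 5447, and 322.6 and 535.4. No gene of these 3 lists was at 0 in any library. The part of these markers in the differences was not tested.

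Within Type IIb-like nuclei 0 of the 32 genes tested were called in Old against Young by edgeR or by DESeq2, as were 0% of all 15927 genes by edgeR. DESeq2 called 5 of all genes higher and 4 lower. Both tools listed 2 of the 32 at an unadjusted p under 0.05, against 4.59% of all genes in edgeR and 744 genes in DESeq2. They were Eno1 (-1.39 ± 0.60 SE) and Pkm (-0.69 ± 0.27 SE) in edgeR. 18 genes were lower in Old in both sets and 4 higher, against 31.5% and 22.5% of all genes. These signs also follow the scaling between sums. Its factors were 0.8874 for Old and 0.7579 for Young in the 10x set and 1.325 and 1.125 in the second. Some of the genes counted as lower lay near 0 in the 10x set after scaling, such as Pdha1 at -0.03 and Pdk2 at -0.08. Type IIb-like nuclei of Old and Young came largely from different clusters in the 10x set: 2837 of the 4005 Old nuclei lay in a cluster that held 178 of the 6236 Young nuclei. With only the 4 Old and Young libraries in the fit, only Gapdh of the 32 was called (-1.17), beside 81 of all 16349 genes higher and 103 lower, and without the first Young library its value was 0.05.

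Within Type IIa/IIx-like nuclei edgeR called 0 of the 28 genes tested and 0.00870% of all 11490 genes in Old against Young, that is 1 gene higher and 0 lower. DESeq2 called 0 of the 28, and 1 of all genes higher and 18 lower. At an unadjusted p under 0.05 edgeR listed 4 and DESeq2 3 of the 28, against 5.41% of all genes in edgeR and 499 genes in DESeq2. In edgeR they were Gpd1 (-1.77 ± 0.51 SE, adjusted p = 0.516), Eno3 (-1.06 ± 0.37), Pkm (-1.06 ± 0.40) and Aldoa (-1.05 ± 0.45), the last of which was at 0.11 without the first Young library and at -1.81 without the second. 15 genes were lower in Old in both sets and 0 higher, against 32.2% and 18.4% of all genes. The second Old library entered with 84 nuclei, and without the second Young library 5 genes were called lower (Aldoa, Eno3, Gapdh, Gpd1 and Pfkfb3), beside 82 of all 13151 genes higher and 101 lower.

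In Running against Sedentary, over all nuclei, edgeR called 0 of the 34 genes and 0% of all genes, and DESeq2 called 0 of the 34. Each tool listed 1 of the 34 at an unadjusted p under 0.05, against 0.479% of all genes in edgeR and 394 genes in DESeq2. In edgeR it was Pgam2, at 87.2 in Sedentary and 169 in Running in the 10x set and at 245 and 838 in the second. Running had the higher value in both sets, and the log2 difference was 1.41 ± 0.44 SE (adjusted p = 1 in edgeR). The median log2 difference was 0.20 for the 34 genes and -0.05 for all genes, or -0.17 for all genes with upper-quartile scaling. 15 of the 34 were higher in Running in both sets and 4 lower, against 26.4% and 21.0% of all genes.

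Aldoa and Gapdh were next among the higher values, at 1.11 ± 0.57 SE and 1.24 ± 0.76 SE. Gapdh stood at 24.2 in Sedentary and 68.4 in Running in the 10x set and at 132 and 287 in the second. With only the 4 Running and Sedentary libraries in the fit, Aldoa (1.23), Gapdh (1.41) and Pgam2 (1.47) were called higher by edgeR, which there called 46 of all 19036 genes higher and 32 lower. In that fit the spread comes from 4 libraries in place of 8. The summed Type IIb markers stood at 3453 in Sedentary and 7441 in Running in the 10x set and at 16470 and 19970 in the second. The Type IIa/IIx markers stood at 6424 and 2819, and at 4537 and 4002. The 8 FAP markers stood at 977 in Sedentary and 2463 in Running in the 10x set and at 377.3 and 457 in the second. The 7 slow-fibre markers stood at 667 and 57.7, and at 465.5 and 809, and no gene of these 4 lists was at 0 in any library. Their part in the differences was not tested.

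Within Type IIb-like nuclei 0 genes were called in Running against Sedentary by edgeR or DESeq2, as were 0% of all genes by edgeR, and each tool listed 2 of the 32 at an unadjusted p under 0.05 (1.64% of all genes in edgeR, 293 genes in DESeq2). In edgeR they were Pgam2 (1.18 ± 0.28 SE) and Aldoa (0.98 ± 0.38 SE), each with an adjusted p of 1. Pgam2 stood at 120 in Sedentary and 198 in Running in the 10x set and at 252 and 824 in the second. 13 genes were higher in Running in both sets and 9 lower, against 28.9% and 23.6% of all genes.

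Within Type IIa/IIx-like nuclei edgeR and DESeq2 again called 0 of the 28 genes in Running against Sedentary, and edgeR called 0% of all genes. At an unadjusted p under 0.05 edgeR listed 5 and DESeq2 2, against 2.55% of all genes in edgeR and 183 genes in DESeq2. In edgeR they were Pgam2 (1.47 ± 0.33 SE, adjusted p = 0.616), Aldoa (1.12 ± 0.44), Pdk4 (1.27 ± 0.56), Gapdh (1.25 ± 0.53) and Gpd1 (0.90 ± 0.42). Pgam2 stood at 69.0 in Sedentary and 151 in Running in the 10x set and at 205 and 714 in the second. Pdk4 stood at 207 and 642, and at 174 and 306. Running was the higher group for both genes in both sets. With only the 4 libraries of the comparison, Aldoa, Gapdh, Pdk4 and Pgam2 were called higher, as were 47 of all 12010 genes, with 18 lower. 13 genes were higher in Running in both sets and 3 lower, against 27.6% and 24.5% of all genes.

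Whether the group difference itself depended on the fibre class was tested as an interaction. In Old against Young edgeR and DESeq2 called 0 of the 32 genes, and edgeR called 0.0491% of all 16287 genes, 0.0123% higher and 0.0368% lower. At an unadjusted p under 0.05 edgeR listed 3 and DESeq2 2, against 4.27% of all genes in edgeR and 242 genes in DESeq2. In edgeR they were Pfkfb3 (1.44 ± 0.44 SE, adjusted p = 0.405), Gpd1 (1.32 ± 0.41 SE, adjusted p = 0.405) and Hk1 (2.23 ± 0.94 SE). A positive value means that the Old minus Young difference lay higher in Type IIb-like than in Type IIa/IIx-like nuclei. Without the second Old library Pfkfb3 (1.59) and Gpd1 (1.59) were called, beside 51 of all 17388 genes higher and 179 lower, and without the first Old library Gpd1 was at -0.21. In Running against Sedentary both tools called 0 genes and edgeR called 0% of all genes. There edgeR listed 1 gene at an unadjusted p under 0.05, Pfkfb3 (-0.76 ± 0.37 SE), and DESeq2 0, against 1.66% of all genes in edgeR and 80 genes in DESeq2.

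**Figure D5:**
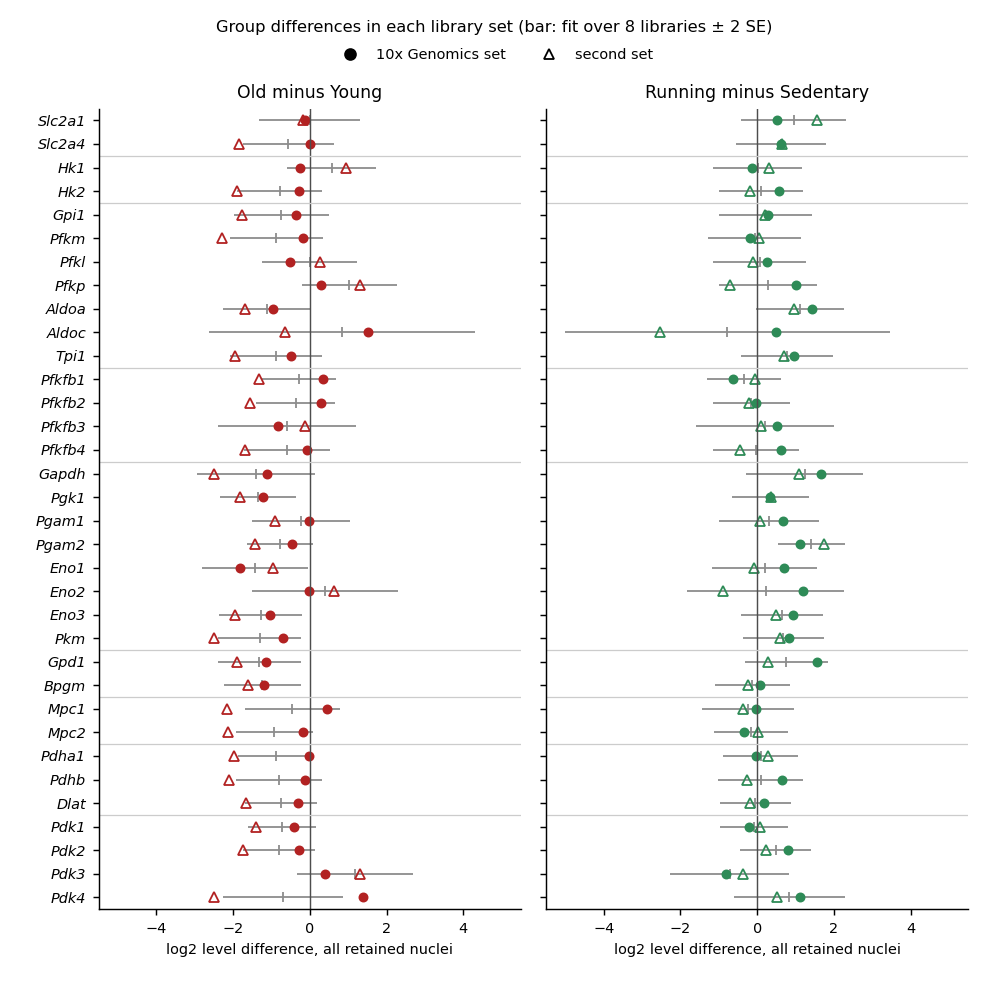
Log2 level difference of each gene over all retained nuclei, Old minus Young (left) and Running minus Sedentary (right). Filled circles are the 10x Genomics set and open triangles the second set, and grey bars give the edgeR fit over the 8 libraries with 2 SE either side. Most triangles of Old minus Young lie far to the left of their circles, down to -2.50. All values are scaled as in the fit, with a factor of 2.017 for the second Old and 1.002 for the second Young library. This scaling moves every triangle of that panel to the left. Pgam2 is right of 0 in both sets for Running minus Sedentary.

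The replicate error set how small a difference could be told from 0 in the group comparisons. Over all nuclei the median SE of the 34 genes was 0.57 on the log2 scale in both comparisons, against 0.10 for the difference between the fibre classes, which is taken within each library. In Type IIb-like nuclei the median SE was 0.37 for the age comparison and 0.35 for the running comparison.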

How the data were processed

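Nuclei were isolated from gastrocnemius and sequenced by the authors on 2 droplet systems. The deposited matrices hold UMI counts per gene and nucleus on mm10, not normalized. Per the labels, Cell Ranger 6.1.2 and Seurat 4.1.1 were used, and per the methods the second set was counted with PISA. Whether intronic reads were counted is not given in the sources used here. The second-set gene lists hold only genes with at least 1 UMI.

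A nucleus was kept if it had above 200 but below 6000 genes detected and less than 6% mitochondrial UMIs (64803 of 65280 passed). Libraries held 4765224 to 44389777 UMIs. Doublets were not removed, and leaving out the 6% highest doublet scores was an alternative. Each set was clustered with scanpy 1.11.5 and leidenalg 0.10.2 (2000 variable genes, 30 components, 20 neighbours, resolution 1.0), without the 34 genes, 41 other pathway genes, and mitochondrial and ribosomal protein genes. Naming limits were set after the clusters were seen.

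UMIs were summed per library, and per class where a library had at least 20 nuclei of it, for 32141 of 32245 symbols (13 mitochondrial and 91 ribosomal protein genes left out). Sums were tested with edgeR 4.0.16 (R 4.3.3; quasi-likelihood, TMM, filterByExpr, Benjamini-Hochberg over all genes, threshold 0.05), with group and library set, or library and class, as terms. The SE is the log2 difference divided by the root of F. Log2 values per library used a prior count of 2. DESeq2 1.42.0 was an alternative, as were upper-quartile scaling, no filter, coarser clusters (resolution 0.5), classes by dominant myosin, fewer libraries and leaving out each library. Tests were tried on simulated data first. Isoform ratios had 0.5 added to each count. All 34 members are named. Other pathway genes were named where called in the fibre comparison, with Ldha, Ldhb, Slc16a1, Slc16a3 and Pygm in any case. The result of 1 such gene is not reported here. The members and lists were chosen with earlier results of these data known. Coordinates and lengths follow GRCm38, and start sequences come from RefSeq.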

Additional observations from a re-analysis of the deposited data

How the results depend on the processing

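In Old against Young and Running against Sedentary no member was called except as follows. With only the libraries of the comparison, 3 were called for Running over all nuclei, 4 for Running in Type IIa/IIx-like and 1 for Old in Type IIb-like nuclei. With no filter beyond 1 UMI, 1 was called for Running in Type IIb-like nuclei (Pgam2), 1 in Type IIa/IIx-like nuclei (Pgam2) and 1 for the Old interaction (Pfkfb3). Leaving out 1 library gave 0 to 5 for Old in Type IIa/IIx-like nuclei (1 without Young replicate 1, Sedentary replicate 1 or Sedentary replicate 2, and 5 without Young replicate 2). It gave 0 to 2 for Running there (2 without Young replicate 1, Young replicate 2 or Sedentary replicate 2), and 0 to 2 for the Old interaction (1 without Young replicate 1, 2 without Old replicate 2). Where a group keeps 1 library, that library is assumed to vary like the other groups. Between Type IIb-like and Type IIa/IIx-like nuclei the members called ranged from 18 (coarser clusters, or the second set alone) to 22. Against FAP-like nuclei they were 31, or 30 with DESeq2 and 10 in the second set alone. The share of called genes that were higher was 61.3% and 54.4% in these 2 comparisons in edgeR, and 50.7% and 38.7% with DESeq2. The alternatives with 1 library set were chosen after seeing the data.

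Of the isoform families, 1 was called between the fibre classes, 0 with coarser clusters or by dominant myosin, 2 with a pseudocount of 1, and 0 to 0 without 1 library, where 7 libraries cannot bring a single family under the threshold. Against FAP-like nuclei 5 to 6 were called without 1 library. Signs turned for hexokinase between the fibre classes (0.26 with coarser clusters, 0.13 by dominant myosin, 0.17 with a pseudocount of 1, 0.05 without Running replicate 1, 0.08 without Sedentary replicate 1, 0.03 without Sedentary replicate 2, and -0.25 to 0.40 over all single libraries left out, the latter without Old replicate 2), aldolase (-0.22 with coarser clusters) and phosphofructokinase (-0.01 without Old replicate 2, up to 0.32). They turned for Old against Young in Type IIb-like nuclei for Gapdh (0.05 without Young replicate 1, down to -2.41), and in Type IIa/IIx-like nuclei for Aldoa (0.11, down to -1.81), Pfkfb3 (1.46, down to -2.03) and Gapdh (0.78, down to -1.86) without Young replicate 1 and for Pdk4 (0.13 without Old replicate 2, 1.04 without Young replicate 2, down to -2.36), as well as for the interaction of Gpd1 (-0.21 without Old replicate 1, up to 1.59). The cause was not tested. No paired analysis was possible because replicate numbers follow accession order and pair no animals, beyond the terms for library set and library that the fits already hold. The second-set FAP-like class (27 to 124 nuclei) and the second Old library limit what depth can show.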
